A study of Mus musculus with 8 samples.

Results

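The Serpina1 and Serpina3 genes are the mouse copies of human alpha-1-antitrypsin and alpha-1-antichymotrypsin, and they lie in a cluster of clade A serpin genes on chromosome 12. The set holds 10 genes chosen by name: Serpina1a, Serpina1b, Serpina1c, Serpina1d and Serpina1e, and Serpina3c, Serpina3g, Serpina3k, Serpina3m and Serpina3n. On the array used here, 9 of the 10 have a probe under their own name, with 12 of the 55681 probes in all, 7 for Serpina1 genes and 5 for Serpina3 genes. Serpina1b has no probe of its own name.

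Gene expression was measured in liver of male NZO/HiBomDife mice (NZO), a strain that becomes obese and diabetic, and of lean C57BL/6 mice (B6), with 4 mice of each strain and 1 one-colour Agilent array per mouse. According to the labels, all 8 mice were 6 weeks old and received a diet with 45% fat, so that diet and age are the same in both groups. The comparison asks which genes differ in expression between the obese and the lean strain. Mice are named by strain and by the number in the labels, for example B6 015. In bulk liver, a difference in RNA per cell and a difference in the share of a cell type cannot be told apart.

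Serpins are protease inhibitors that present an exposed reactive centre loop as bait and trap the protease that cuts it. Alpha-1-antitrypsin is made by hepatocytes, secreted in large amounts into plasma and known for the inhibition of neutrophil elastase. The human genome has a single gene of each kind, whereas mice carry several close copies that differ mainly in the loop. Several Serpina3 copies are acute-phase genes, which means that inflammation and cytokines of the interleukin 6 family change their expression in liver.

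The copies are so alike that it matters which stretch each probe reads. In the following, probe 1 of a gene is the one nearer the 5′ end of the transcript, and positions are those of the mm9 annotation in the files, on the reverse strand of chromosome 12. Probe 1 of Serpina1a (chr12:105091979-105092038) and probe 1 of Serpina1e (chr12:105185290-105185349) lie in the stretch that codes for the reactive centre loop. They share a run of 17 bases, shown in capitals, and differ on both sides of it.
Serpina1a probe 1: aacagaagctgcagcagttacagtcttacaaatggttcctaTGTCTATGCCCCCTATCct
Serpina1e probe 1: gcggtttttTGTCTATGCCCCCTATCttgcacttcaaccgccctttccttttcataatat

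Probe 2 of Serpina1a (chr12:105091819-105091878), the Serpina1c probe (chr12:105133165-105133224) and probe 2 of Serpina1e (chr12:105185172-105185231) lie further towards the 3′ end and overlap in part. A window of 30 of the 60 bases is given for each, with the 29 bases shared by all 3 in capitals.
Serpina1a probe 2: GTCATCCTTCCTTCTGAATTGGGTTCCTTc
Serpina1c: GTCATCCTTCCTTCTGAATTGGGTTCCTTc
Serpina1e probe 2: GTCATCCTTCCTTCTGAATTGGGTTCCTTt

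The Serpina1a and Serpina1c probes of this kind share a run of 47 bases. The files list the Serpina1c probe under transcripts of Serpina1a, Serpina1b and Serpina1c, and probe 2 of Serpina1d (chr12:105002930-105002989) under transcripts of Serpina1b and Serpina1d. Of the 21 pairs of Serpina1 probes, 4 share a run of at least 15 bases. The values below are therefore those of probes, and a change in a single Serpina1 copy cannot be told apart from one in its near-identical neighbours.

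The Serpina3 probes share no long run with each other, and all but that of Serpina3c lie on the forward strand. The longest run shared by any of their 10 pairs is 9 bases. Whether a probe also reads other Serpina3 copies was not tested. The first 30 bases of each are shown so that they can be set beside the shared window above.
Serpina3c: gactctgagatggaccctatatgtggatct
Serpina3g: tgtctcttgttgaccaactacgtaggactg
Serpina3k: caagttctcatgattctgtccagggctctg
Serpina3m: tatggccaaagtcactaaccccaagtgaac
Serpina3n: ttggcatgcctggattagatagtgactaac

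None of the members differed between NZO and B6 by the criteria used. Levels are given as log2 processed signal minus the 75th percentile of the array, and a probe at that percentile has the level 0. All 12 probes were above background on all 8 arrays. A probe was called when limma's Benjamini-Hochberg adjusted p over the 27642 probes tested was at most 0.05 and the log2 fold change at least 0.7 in either direction, which 9.62% of the probes tested met. Of the 12 member probes, limma called 0. Its unadjusted p was at most 0.05 for 6 of them, against 27.8% of all probes and 19 of the 36 other probes with a mean log2 level of at least 10. The methods' thresholds (unadjusted p and fold change) called 0 of 12 with limma and with the methods' t-test, against 12.2% of all probes with limma. The smallest adjusted p of a member was 0.0823.

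**Figure D1:**
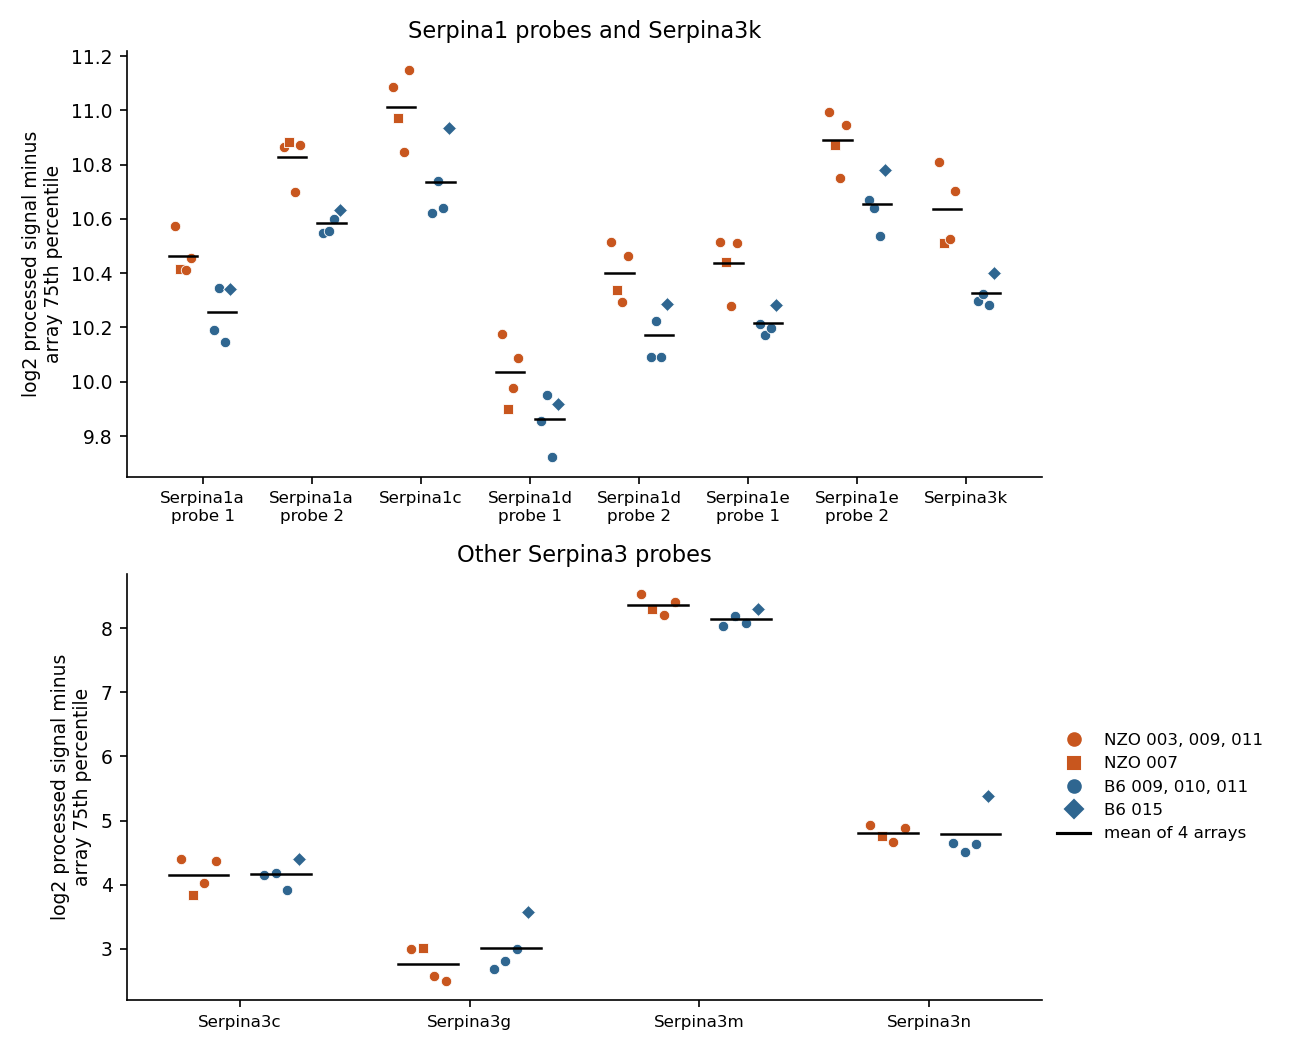
Log2 processed signal minus the 75th percentile of the array (vertical axis) for each member probe, with 1 point per array, NZO in orange, B6 in blue and the mean of 4 arrays as a black line. The Serpina1 and Serpina3k probes lie slightly higher on NZO arrays, while B6 015 stands above the other arrays for Serpina3n and Serpina3g.

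The Serpina1 probes were slightly higher on the NZO arrays. For probe 2 of Serpina1a the levels were 10.86, 10.88, 10.70 and 10.87 in NZO 003, 007, 009 and 011, and 10.55, 10.56, 10.60 and 10.63 in B6 009, 010, 011 and 015. All NZO arrays lay above all B6 arrays, and the log2 fold change was 0.25 ± 0.09 (SE; 95% interval 0.05 to 0.44; limma adjusted p = 0.107). For probe 1, over the loop, the means were 10.46 ± 0.08 in NZO and 10.26 ± 0.10 in B6 (SD, n = 4), again without overlap, and the log2 fold change was 0.21 ± 0.09 (SE, limma adjusted p = 0.198). Both probes of this gene, which share no long run of bases, gave nearly the same difference, close to the median of other bright probes given below.

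For Serpina1c, whose probe also lists Serpina1a and Serpina1b, the levels were 11.09, 10.97, 10.85 and 11.15 in NZO 003, 007, 009 and 011, and 10.62, 10.74, 10.64 and 10.93 in B6 009, 010, 011 and 015. The groups overlapped, because B6 015 reached a higher level than NZO 009. The log2 fold change was 0.28 ± 0.11 (SE; 95% interval 0.02 to 0.54; limma adjusted p = 0.152). The remaining 4 probes read Serpina1d and Serpina1e. Probes 1 and 2 of Serpina1d had means of 10.04 and 10.40 in NZO and 9.86 and 10.17 in B6, with log2 fold changes of 0.17 and 0.23. Probes 1 and 2 of Serpina1e had means of 10.44 and 10.89 in NZO and 10.22 and 10.66 in B6, with log2 fold changes of 0.22 and 0.23. The strains overlapped in 3 of these 4 probes, the exception being probe 2 of Serpina1d.

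Across the 7 Serpina1 probes the log2 fold changes ranged from 0.17 to 0.28 with a median of 0.23, and the median over all probes tested was 0.01. The 95% intervals of the 7 probes lay between -0.06 and 0.54, all short of the limit of 0.7. The Serpina1 probes are among the brightest of the array, with a raw median intensity of 45.6% to 94.2% of the brightest probe of the same array, and no spot was saturated. The 36 other probes with a mean log2 level of at least 10 had a median log2 fold change of 0.23 as well. Quantile normalization lowered the median of the Serpina1 probes to 0.03 and that of the 36 others to 0.01. In the deposited table as given, where the median of all probes lies at -0.15, the Serpina1 median was 0.01 and that of the 36 others 0.01. The small excess in NZO was thus of the same size in other bright probes and depended on the scaling between arrays, and relative to the median of all probes it was 0.16 in the table as given. Whether the scaling or the strain gives the excess was not tested.

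**Figure D2:**
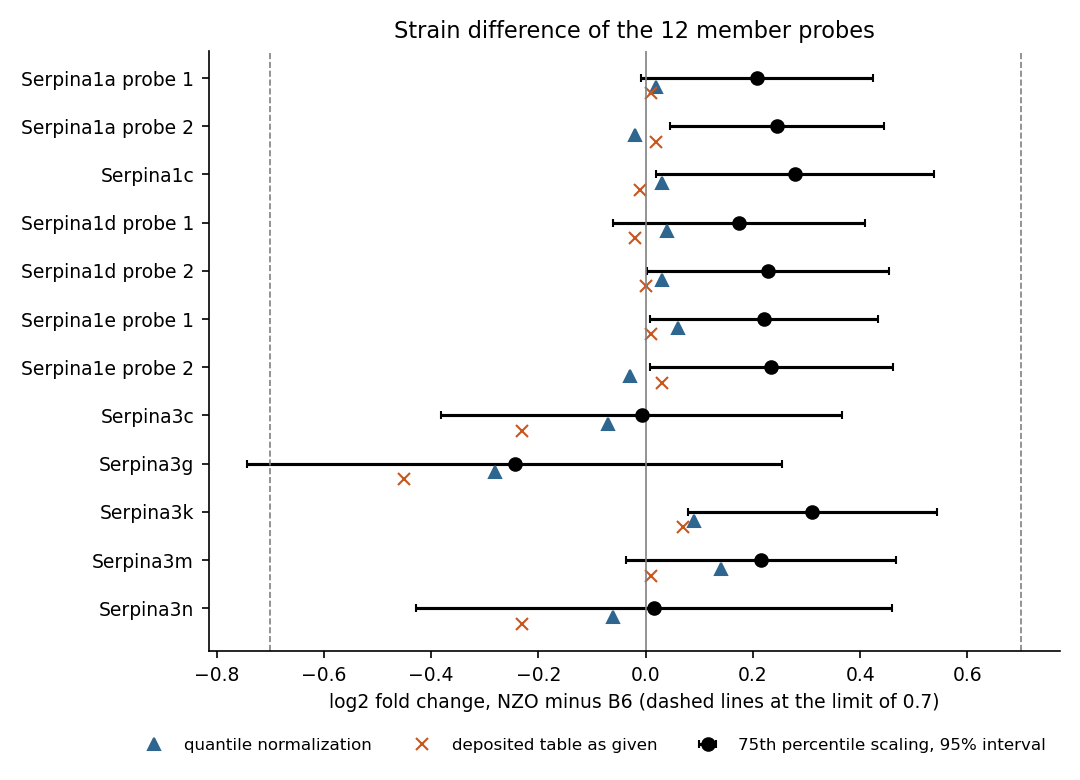
Log2 fold change of NZO against B6 (horizontal axis) for the 12 member probes, as black points with 95% intervals for 75th percentile scaling, with the values after quantile normalization (triangles) and from the deposited table as given (crosses). All 7 Serpina1 probes lie between 0.17 and 0.28 with the first scaling and between -0.03 and 0.06 with the other two, and no point reaches the dashed limits at 0.7.

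The Serpina1 probes also followed the same arrays within a strain. NZO 003 was the highest NZO array for 5 of the 7 probes and NZO 009 the lowest for 6, and B6 015 was the highest B6 array for 5. Since 3 of the probes share a run of 29 bases, these counts are not independent. NZO 003, B6 010 and B6 015 were hybridised on the same slide, and within this slide, with 1 NZO and 2 B6 arrays, the median log2 fold change of the 7 probes was 0.26. Within the first and the second scan day it was 0.19 and 0.25.

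The promoters of all 5 Serpina1 genes, Serpina1b included, hold the same block close to the start site. It is the longest run shared by the 5 windows of 250 bases before the start in the RefSeq table (GRCm38.p6), is 55 bases long and ends 0 to 62 bases before the start site. It is shown because all 5 genes carry it in full, and no letters are marked. The copy shown is that of Serpina1a (chr12:103863625-103863679, reverse strand, GRCm38.p6).
Serpina1a promoter block: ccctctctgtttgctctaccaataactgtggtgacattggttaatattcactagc

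Among the Serpina3 genes, Serpina3k came closest to a call. It encodes the plasma protease inhibitor known as contrapsin, and its probe lies at chr12:105583645-105583704 (mm9). The levels were 10.81, 10.51, 10.53 and 10.70 in NZO 003, 007, 009 and 011, and 10.30, 10.32, 10.28 and 10.40 in B6 009, 010, 011 and 015. The groups did not overlap, and the log2 fold change was 0.31 ± 0.10 (SE; 95% interval 0.08 to 0.54; limma adjusted p = 0.0823). Its raw intensity was 65.5% to 84.6% of the brightest probe, and after quantile normalization the log2 fold change was 0.09. Serpina3m, read at chr12:105632110-105632169, showed a difference of similar size, with means of 8.37 ± 0.14 in NZO and 8.15 ± 0.12 in B6 (SD, n = 4), overlapping groups and a log2 fold change of 0.22 (95% interval -0.04 to 0.47). Of the 12 member probes, 4 had all NZO arrays above all B6 arrays, namely both probes of Serpina1a, probe 2 of Serpina1d and Serpina3k. Of all probes tested 11.3% did, and of the 36 other probes with a mean log2 level of at least 10, 16 did.

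Serpina3n and Serpina3g both had their highest level in B6 015. Serpina3n, an inhibitor of granzyme B and of neutrophil proteases that is known as an acute-phase gene, was read at chr12:105651918-105651977. Its levels were 4.93, 4.76, 4.66 and 4.89 in NZO 003, 007, 009 and 011, and 4.65, 4.503, 4.64 and 5.38 in B6 009, 010, 011 and 015. B6 015 was the highest of all arrays, and each of the other B6 arrays lay below each NZO array. The log2 fold change was 0.02 ± 0.19 (SE; 95% interval -0.43 to 0.46; limma adjusted p = 0.968), and without B6 015 it was 0.21 (limma adjusted p = 0.295).

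Serpina3g, known as Spi2A, protects leukocytes against cysteine cathepsins released from lysosomes and was read at chr12:105480045-105480104. The levels were 2.991, 3.005, 2.579 and 2.499 in NZO 003, 007, 009 and 011, and 2.676, 2.807, 2.998 and 3.568 in B6 009, 010, 011 and 015. The groups overlapped, with B6 015 again the highest. The log2 fold change was -0.24 ± 0.22 (SE; 95% interval -0.74 to 0.25; limma adjusted p = 0.512), so that a decrease as large as the limit of 0.7 lies inside the interval. Without B6 015 the value was -0.06, and it was -0.50 within the first and 0.17 within the second scan day. Serpina3c, a kallikrein-binding protein read at chr12:105385352-105385411, had the same mean in both strains, 4.16 ± 0.27 in NZO and 4.16 ± 0.20 in B6 (SD, n = 4), and a log2 fold change of -0.01 (95% interval -0.38 to 0.37).

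Acute-phase proteins, which the liver secretes during inflammation, were examined beside the members as a list of 18 genes, each read by its brightest probe. B6 015 was the highest B6 array for 16 of the 18 and the highest of all arrays for 12. Saa1, serum amyloid A, had levels of 7.31, 6.76, 5.83 and 6.75 in NZO 003, 007, 009 and 011, and 8.19, 6.70, 7.33 and 9.49 in B6 009, 010, 011 and 015. The groups overlapped, and the log2 fold change was -1.26 ± 0.58 (SE, limma adjusted p = 0.205), and without B6 015 it was -0.74 (limma adjusted p = 0.344). Cebpb, a transcription factor of the acute-phase response, reached 5.39 in B6 015 against 4.10 to 4.79 in the other B6 mice. By contrast, Serpina1c, Serpina3k and Serpina3m reached their highest B6 level in B6 015 by a margin of 0.19, 0.08 and 0.10 over the next B6 array.

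Of the 18 acute-phase genes, 2 rose and 3 fell in NZO, with a median log2 fold change of -0.11. Among all 20117 genes read by their brightest probe, 4.4% rose and 4.97% fell. Apcs, serum amyloid P, rose by 1.71 ± 0.29 on the log2 scale (SE, limma adjusted p = 0.00488) and Fga, the fibrinogen alpha chain, by 0.86 ± 0.15 (limma adjusted p = 0.00655), with 0.69 and no call in the deposited table as given. Lcn2, the iron-siderophore binding lipocalin 2, fell by 2.70 ± 0.61 (limma adjusted p = 0.0203), with levels of -0.43, 0.41, -0.41 and -0.68 in NZO and 2.002, 1.134, 2.286 and 4.284 in B6 in the order above. Orm1 and Orm2, the orosomucoids, fell as well, with log2 fold changes of -0.77 and -0.71 (limma adjusted p = 0.0401 and 0.0473). Without B6 015 the changes were -0.56 for Orm1 and -0.51 for Orm2, short of the limit, and leaving out any mouse but B6 010 ended both calls. Lcn2 still fell by 2.08 without B6 015 (limma adjusted p = 0.00952), and its call was lost without NZO 003, NZO 009, NZO 011 or B6 011 (log2 fold changes of -2.57 to -2.75). Within the second scan day it was -1.73. None of the Serpina members belonged to the called genes in either case.

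**Figure D3:**
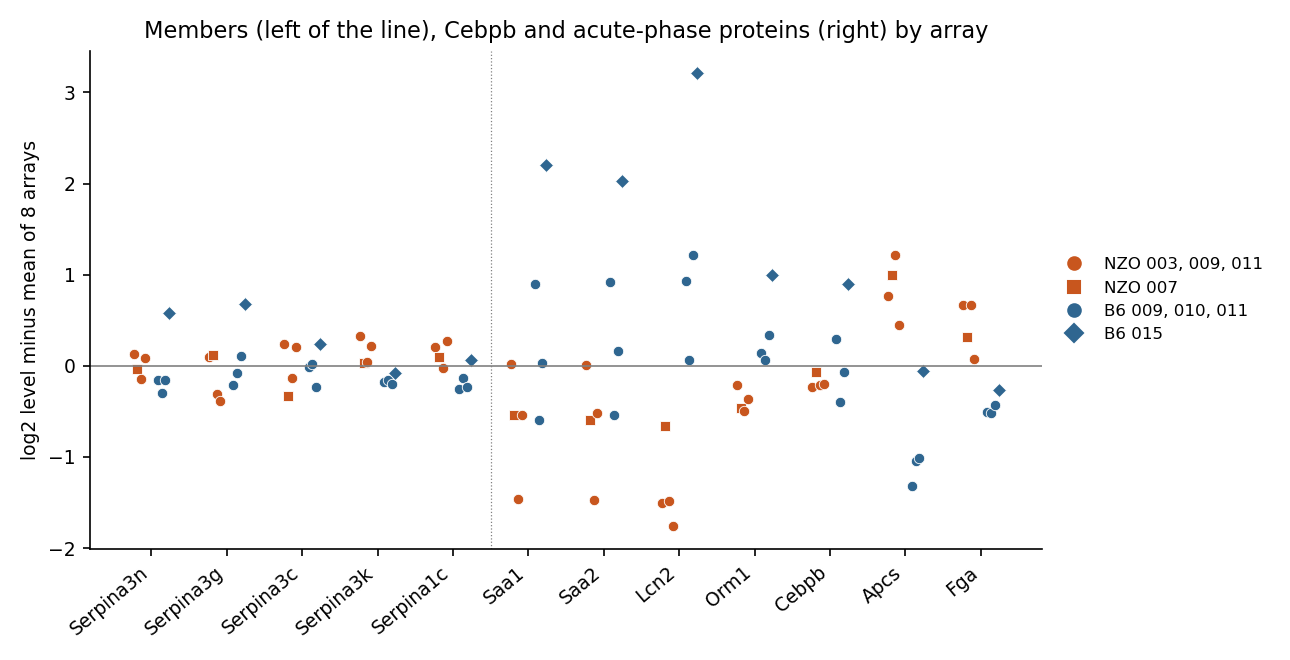
Log2 level minus the mean of the 8 arrays (vertical axis) for 5 members on the left of the dotted line and for Saa1, Saa2, Lcn2, Orm1, Cebpb, Apcs and Fga on the right, with 1 point per array, NZO in orange, B6 in blue. The blue diamond, B6 015, is the highest array for Serpina3n, Serpina3g, Saa1, Saa2, Lcn2, Orm1 and Cebpb, whereas Serpina3k and Serpina1c differ little among arrays.

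The regulators of the cluster, 16 genes for hepatocyte and cytokine-driven transcription factors and their receptors, had a median log2 fold change of -0.12, with 0 that rose and 2 that fell. Osmr, the oncostatin M receptor, fell by 0.80 ± 0.10 on the log2 scale (SE, limma adjusted p = 0.00137), and Il1r1, the interleukin 1 receptor, by 1.18 ± 0.27 (limma adjusted p = 0.0235). Osmr was not called after normexp (-0.52) or in the deposited table minus its 75th percentile (-0.63). Leaving out NZO 003, B6 011 or B6 015 ended the call of Il1r1, with changes of -1.12, -0.99 and -1.21. Stat3, the transcription factor downstream of interleukin 6, had a log2 fold change of -0.25 (95% interval -0.56 to 0.07, limma adjusted p = 0.288). Its value was -0.48 in the deposited table as given and -0.16 within the slide with both strains.

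Further genes of the cluster were read as neighbours of the members, and their log2 fold changes ranged more widely. The RefSeq gene table lists 28 clade A serpin genes on chromosome 12, of which 23 have a probe. Of 15 neighbours, which include the X-linked Serpina7, 12 could be tested, and 1 rose and 0 fell, with a median log2 fold change of 0.39.

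Serpina12 encodes vaspin, a serpin secreted by liver and fat, and its levels were 0.86, 0.69, 0.85 and 0.63 in NZO 003, 007, 009 and 011, and -0.03, -0.14, 0.06 and -1.34 in B6 009, 010, 011 and 015. The groups did not overlap, and B6 015 was far below the other B6 mice. The log2 fold change was 1.12 ± 0.29 (SE; limma adjusted p = 0.0389). Without B6 015 it was 0.79 (adjusted p = 0.0048), whereas leaving out NZO 003, NZO 007, NZO 009, NZO 011, B6 009 or B6 010 gave 1.09 to 1.23 and ended the call (limma adjusted p of 0.0556 to 0.0959). It was also not called in the deposited table as given (0.73, limma adjusted p = 0.0607) or within either scan day (1.52 and 0.68, limma adjusted p = 0.0843 and 0.144).

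Serpina6, which encodes corticosteroid-binding globulin, the carrier of glucocorticoids in plasma, had levels of 5.91, 5.86, 5.88 and 5.61 in NZO 003, 007, 009 and 011, and 5.16, 5.01, 5.13 and 5.19 in B6 009, 010, 011 and 015. The groups did not overlap. The log2 fold change of 0.69 ± 0.10 (SE, limma adjusted p = 0.00274) was just under the limit of 0.7. It passed without NZO 011 (0.76), B6 015 (0.72) or B6 009 (0.70). It also passed with the slide as a random block (0.71) and with scan day as a fixed term (0.7), whereas it was 0.43 in the deposited table as given. Its second probe gave 0.63. Serpina10, the protein Z-dependent protease inhibitor, had a log2 fold change of 0.42 ± 0.14 (SE, limma adjusted p = 0.0956), which was 0.16 in that table.

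Closest to the members, Serpina3h had a log2 fold change of 0.43 (95% interval 0.12 to 0.74; limma adjusted p = 0.0755) and the brightest probes of Serpina3f and Serpina3i had -0.55 each, none of them called. A dimmer Serpina3i probe was not well above background on any NZO array and above it on all 4 B6 arrays. Its level was at least 1.83-fold higher in B6. This bound sets each NZO array at the lowest level found above background if that is higher. The probe entered the test only through B6, so only the bound is read and no call is drawn from it. The count of neighbours that fell is that of brightest probes. Serpina3a and Serpina3j were not above background on any array. The Serpina4-ps1 pseudogene split the B6 mice. Its levels were 8.03 and 8.42 in B6 009 and 011 but 6.48 and 6.53 in B6 010 and 015, which shared a slide and are the B6 arrays of the first scan day, and 7.88 to 8.34 in NZO, including 7.88 in NZO 003 from the same slide and 8.23 and 7.98 in NZO 009 and 011 from the same scan day.

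**Figure D4:**
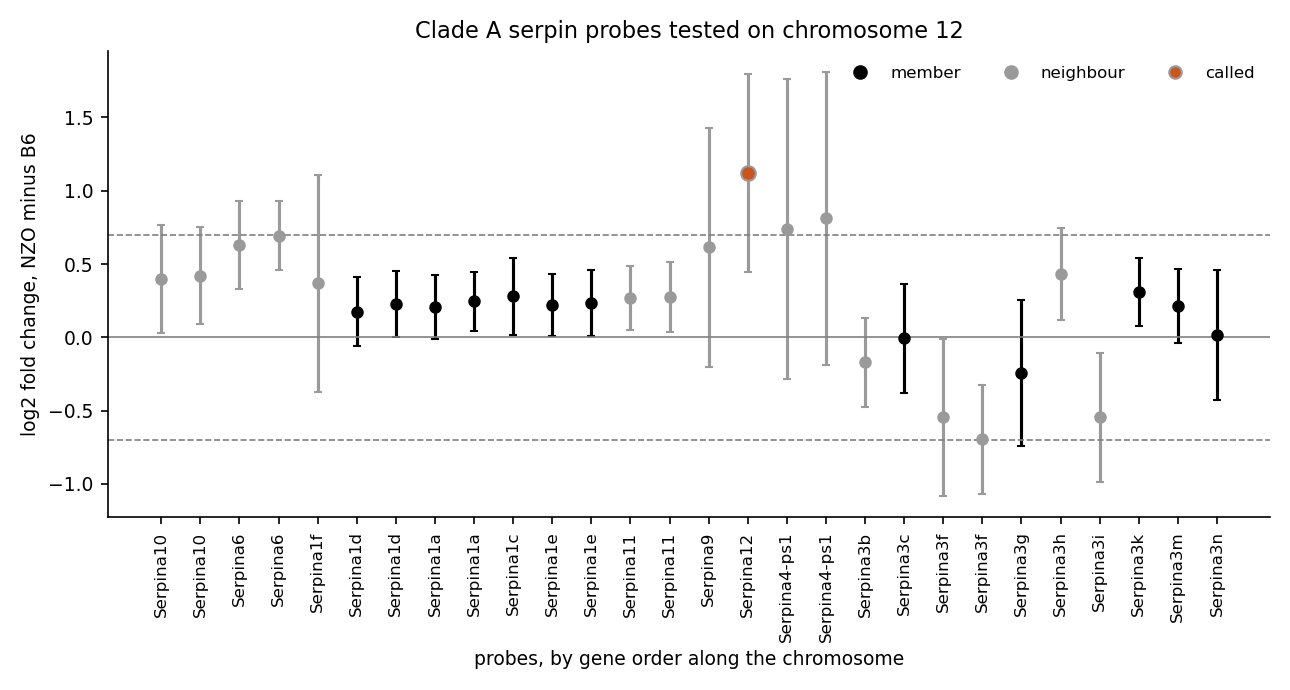
Log2 fold change of NZO against B6 with 95% intervals (vertical axis) for the clade A serpin probes tested on chromosome 12 and above background in both strains (a Serpina3i probe below background in NZO is left out), ordered along the horizontal axis by gene order, with members in black, neighbours in grey, called probes filled in orange and dashed lines at 0.7 in either direction. The 7 Serpina1 probes lie in a flat row between 0.17 and 0.28, while the neighbours range from -0.70 for the dimmer Serpina3f probe to 1.12 for Serpina12.

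Of 13 serpins outside clade A, 11 could be tested, and 0 rose and 2 fell, with a median log2 fold change of 0.11. Serpine2, protease nexin 1, was counted as fallen, with a fitted log2 fold change of -2.56 ± 0.31 (SE). Only 2 of 4 NZO arrays were above background, so it was tested through B6 alone. No exact size is read, and nothing further is drawn from its call. The size of this change depended on the background correction, with -0.72 after normexp and -1.32 in the deposited table as given, both called. Serpinh1, the collagen chaperone Hsp47, fell by 0.84 ± 0.11 (limma adjusted p = 0.00145) and was not called after normexp (-0.64). Serpinc1, which encodes antithrombin and is made by hepatocytes like the members, had a log2 fold change of 0.13 (95% interval -0.07 to 0.32; limma adjusted p = 0.374).

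Of 10 proteases that these serpins are known to inhibit or that are related to their targets, 6 could be tested and limma called 0 (0 at an unadjusted p of 0.05, and 0 by the methods' t-test), with a median log2 fold change of -0.02. Alpha-1-antitrypsin is folded and exported through the endoplasmic reticulum, where misfolded forms are degraded. Of 18 genes of folding, export and degradation, limma called 0 and the methods' t-test 0, and the median log2 fold change was 0.10. An unadjusted limma p of at most 0.05 at any fold change was found for 5 of the 18, against 27.8% of all probes. Lman1, the cargo receptor for alpha-1-antitrypsin, had a log2 fold change of 0.02 (95% interval -0.25 to 0.30). In this list, Mcfd2, the partner of Lman1 (0.45, limma adjusted p = 0.0419), and Man1b1, the mannosidase that marks misfolded glycoproteins (0.50, limma adjusted p = 0.00955), passed on the p but not on the fold change. These were chosen after their values were seen, and 3930 of the 27642 probes tested had a limma adjusted p of at most 0.05.

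Of 5 markers of hepatocytes, limma and the methods' t-test called 0 (0 at an unadjusted limma p of 0.05), and their median log2 fold change was 0.00. Alb, albumin, lay at 11.21 ± 0.02 in NZO and 10.94 ± 0.23 in B6 (SD, n = 4), a log2 fold change of 0.27 (95% interval -0.02 to 0.55). Some markers of other cells were called, and others were not. Of 5 sinusoidal endothelial and Kupffer cell markers, 2 fell in NZO, Clec4f by 1.13 and Marco by 1.83 on the log2 scale, both genes of Kupffer cells, while Stab2, the endothelial stabilin 2, went the other way, with means of 5.03 ± 0.05 in NZO and 4.54 ± 0.10 in B6 (SD, n = 4), no overlap and a log2 fold change of 0.48 (limma adjusted p = 0.00889), short of the limit. Lyve1, another endothelial gene, had -0.62 (limma adjusted p = 0.0241) and Pecam1 -0.22 (limma adjusted p = 0.379). Within the second scan day the value of Marco was -0.87. The summed level of the list, on the linear scale relative to the 75th percentile, was 57.5, 56.4, 52.5 and 51.7 in NZO 003, 007, 009 and 011, and 65.9, 71.9, 74.95 and 96.8 in B6 009, 010, 011 and 015. Its brightest probe was that of Clec4f in B6 and that of Stab2 in NZO. B6 015 was the highest array of the sum.

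Of 5 leukocyte markers, 1 was counted as fallen, Itgax, with a fitted log2 fold change of -2.04. Only 2 of 4 NZO arrays were above background, so it was tested through B6 alone. No exact size is read, and nothing further is drawn from its call. Every mouse but NZO 007, when left out, ended the call of Itgax (log2 fold changes of -1.59 to -2.18). Its value was -0.48 within the second scan day and -0.37 with normexp background correction, and neither was called. The other 4 markers of this list had log2 fold changes of 0.41 for Lyz2, 0.33 for Cd3e, -0.42 for Cd68 and -0.52 for Ptprc, none of them called. The summed level of the leukocyte list was 10.8 to 18.8 in NZO and 10.8 to 13.4 in B6. Of 4 red blood cell markers, 2 rose, Hba-a1 by 1.00 and Alas2 by 0.90, and their summed level was 293 to 470 in NZO and 155 to 208 in B6, without overlap. The call of Hba-a1 was lost without B6 010 (0.93) or B6 015 (0.94), and neither gene was called in the deposited table as given (0.79 for Hba-a1 and 0.66 for Alas2). Skeletal muscle markers, with Myh4 the brightest, summed to 16.4 in NZO 007 and 5.49 in B6 010 and to at most 1.39 in each of the other mice. Without NZO 007 the log2 fold changes of Serpina1c, Serpina3k and Serpina3g were 0.29, 0.35 and -0.32. The part of these cells in the values of the members was not tested.

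The genes whose levels were most like a member's over the 8 arrays were found among 13867 probes, 1 for each gene, that were above background on all arrays. Of the Serpina1 genes, each read by its brightest probe, Serpina1a was most like Gm13249 (Pearson r = 0.99), Serpina1c most like Ahsg, fetuin A, a plasma protein of hepatocytes (r = 0.99), Serpina1d most like COX2, a mitochondrial subunit of the respiratory chain (r = 0.98), and Serpina1e most like Mup2, a major urinary protein (r = 0.99). Serpina3g was most like Clec4a1, a lectin of myeloid cells (r = 0.98), Serpina3n most like Klf13 (r = 0.97), Serpina3k most like Rcan1 (r = 0.99) and Serpina3c most like Cry2 (r = 0.97). With 8 arrays and so many probes, a coefficient of this size is a description of these arrays only.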

How the data were processed

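Liver RNA of 4 NZO and 4 B6 mice was hybridised to 1-colour Agilent arrays. The deposited scanner files hold intensity values and name Agilent Feature Extraction 11.0.1.1 in their headers, whereas the submitters' processing notes name version 9.1. The processed signal is background-subtracted within an array and not scaled between arrays. The table deposited as normalized equals the raw median intensity (59305 of 59305 spots on each array within 0.01) and served as an alternative. For the mouse arrays, the study's text refers to earlier work and names no normalization itself.

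Controls and the 96 to 137 outlier spots of an array were dropped. Each array's log2 values were set relative to its 75th percentile, and replicate spots were averaged by probe. This percentile was 119 to 142 in NZO and 136 to 159 in B6. Probes well above background on all 4 arrays of a strain were tested with limma 3.58.1 in R 4.3.3 without a block, with Benjamini-Hochberg adjustment. Intervals are at 95%. Every member probe was kept separate. Probe positions are those of mm9 in the files, and promoters are from the RefSeq table of GRCm38.p6, in which 8 of the 10 members have a promoter.

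The rule named all members, 7 further genes, the called genes of each list (up to 6) and the genes most like a member; 2 more items are not reported here. Other genes, such as Cebpb, Alb, Stab2, Serpina3f and Serpina3h, were chosen after their values were seen. Lists read a gene by its brightest probe. The members, the lists and the tests were chosen with earlier results of these data known. Lists of neighbours, other serpins, proteases, folding genes, regulators, acute-phase genes and cell markers were used. Adipocyte markers (0 of 3 tested called by limma, 1 at an unadjusted p of 0.05) and exocrine pancreas markers (0 of 2, 0 unadjusted) gave no call, and single arrays stood apart. Car3 of the adipocyte list had a log2 fold change of 0.47 (limma adjusted p = 0.0133), short of the limit, with all NZO arrays above all B6 arrays. Within a strain the labels tell the mice apart only by a number, so that p-values measure the spread between these samples, and the number of arrays limits the precision. In a test on simulated data, 144 of 200 probes with a planted log2 change of 1.5 in either direction were called among 27642, with 9 unchanged ones. Alternatives covered background correction, scaling, filters, slide, scan day, replicate block, the methods' t-test and leaving out each mouse.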

Additional observations from a re-analysis of the deposited data

Results flagged for a closer look

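Dixon's criterion (the gap of a single array to its neighbour divided by the range of the 4 arrays of a strain) was applied to the members and to the genes of all lists, where all 4 arrays of the strain were above background. It was passed in 17 of 232 groups tested, and chance gives about 1 in 20. Among the members, Serpina3n was high in B6 015 at 5.38, and probe 2 of Serpina1a was low in NZO 009 at 10.70. B6 015 was also low for Serpina12 at -1.34 and for Cela1, a pancreatic elastase, at -2.55, and high for Fgb, the fibrinogen beta chain, at 10.70, for Itih3, an inter-alpha-trypsin inhibitor chain, at 8.45, for Itgax at -1.18 and for Prtn3, proteinase 3 of neutrophils, at -1.17.

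Serpina6 was low in NZO 011 at 5.61. Serpina7, thyroxine-binding globulin, was low in B6 011 at -1.19, as were Tat, tyrosine aminotransferase, at 5.77 and Ctrb1, chymotrypsinogen, at -0.23. Socs3, the inhibitor of cytokine signalling, was low in B6 010 at 0.32. In NZO 009, Prtn3 was high at -2.26 and the chaperone Calr was low at 5.92. In NZO 007, the chaperone Hsp90b1 was low at 6.51 and Cd68, a macrophage marker, was high at 1.79.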

How the results depend on the processing

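The count of member probes called was 0 in each direction under all 25 alternatives, the methods' t-test and the replicate block included. The median log2 fold change of the 7 Serpina1 probes was 0.23 and moved to 0.03 with quantile normalization and to 0.01 in the deposited table as given. Among all probes, that table moved the median log2 fold change from 0.01 to -0.15 and the share of calls that were higher in NZO from 45.1% of 2658 to 28.8% of 1998; normexp gave 1199 calls and the table minus its 75th percentile 1700. Without each mouse in turn the Serpina1 median was 0.19 to 0.27.

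Signs turned for values that were not called. Quantile normalization gave -0.02 for probe 2 of Serpina1a (0.25) and -0.03 for probe 2 of Serpina1e (0.23), and the table as given gave -0.01 for Serpina1c (0.28) and -0.02 for probe 1 of Serpina1d (0.17). Serpina3c (-0.01) became 0.01 with the slide as a random block, 0.11 with the slide as a fixed term and within the slide with both strains, 0.16 with the replicate block, and lay between -0.09 and 0.10 without each mouse. Serpina3g (-0.24) became 0.17 within the second scan day. Serpina3n (0.02) became -0.05 with normexp, -0.06 with quantile normalization, -0.23 in the table as given, -0.04 after subtraction of its 75th percentile, -0.01 with the slide as a fixed term and within the slide with both strains, -0.03 with scan day as a term and -0.12 within the first scan day, and lay between -0.08 and 0.21 without each mouse. Serpinc1 (0.13) became -0.14 in the table as given. Lman1 (0.02) became -0.01 with normexp, -0.09 with quantile normalization, -0.16 in the table as given, -0.31 within the second scan day and -0.01 with the replicate block, and lay between -0.04 and 0.10 without each mouse. The cause was not tested.

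Mouse numbers 009 and 011 occur in both strains. Their deviations from the strain means correlated at -0.26 and -0.00, so the numbers were not treated as pairs. With the replicate block, which rests on these 4 mice, the median of the Serpina1 probes was 0.25 and Serpina12 lost its call (0.72). Of the 15 named genes called outside the members, 1 was called with this block, 0 with the slide as a fixed term, 0 within the slide with both strains, 4 within the first scan day and 0 within the second, while limma called 206, 1481, 1245, 1648 and 677 of all probes; all 15 kept their direction in these 5 settings. Of the same 15 genes, 13 were called with the slide as a random block and 13 with scan day as a fixed term. In these 2 settings limma called 2729 and 2791 of all probes. Without the filter on dim probes 8 of the 15 were called, and 6 by the methods' t-test after adjustment. The 15 include Serpine2 and Itgax, which were tested through B6 alone. Slides and scan days hold few arrays of each strain, and within the slide with both strains the lone NZO array is assumed to vary like the others. The ratio of raw median to local background was 1.73 for NZO arrays and 1.96 for B6 arrays, which limits dim probes; all members were above background. Strain differences in the sequence under the probes were not analysed here.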

Other observations

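Probes of the same Serpina1 gene read different stretches and gave close values, and the 36 other probes with a mean log2 level of at least 10 had a median log2 fold change of 0.23 as well. The log2 fold changes were 0.21 and 0.25 for the probes of Serpina1a, 0.17 and 0.23 for those of Serpina1d and 0.22 and 0.23 for those of Serpina1e. Of the neighbours, the brighter and the dimmer probe of Serpina3f had a wider gap, with -0.55 and -0.70, of which the second had no overlap between the strains and missed the limit of 0.7 by less than 0.01. Of the Serpina3i probes, the brighter (-0.55) was not called. For the dimmer, only the bound of at least 1.83-fold higher in B6 is read, as given above.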
